A study of Mus musculus with 4 samples.

Results

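The genes described here encode the mitochondrial respiratory chain and ATP synthase, sorted by complex and by the genome that encodes them, in mouse muscle stem cells that carry a conditional Hairless (Hr) knockout and in their controls. Members were the rows whose symbol begins with Nduf, Sdha to Sdhd, Uqcr, Cox5 to Cox8 or Atp5, and the rows on chromosome MT, 94 of the 11603 rows in the table. Of these, 86 were found by symbol and stand for 84 genes, because Atp5g2 and Atp5l each have a second row, and 8 were found by chromosome. By role, 74 rows are nuclear-encoded subunits (35 of complex I, 4 of complex II, 8 of complex III, 12 of complex IV and 15 of complex V), 8 are mitochondrially encoded subunits, and 12 share a family name without being a subunit. These 12 are the complex I assembly factors Ndufaf1 to Ndufaf7, Cox7a2l, Atp5s, Atp5sl and the 2 second rows. The table listed 8 of the 13 mitochondrial protein-coding genes, and the other 5, ND4L, COX2, COX3, ATP6 and ATP8, were not analysed here.

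RNA was sequenced from 2 samples labelled conditional Hr knockout and 2 samples labelled control, all from hindlimb muscle of male C57BL/6 mice aged 4 to 5 months. Cells were sorted as VCAM1+/CD31-/CD45-/Sca1-, a gate for muscle stem cells, the quiescent Pax7-expressing precursors of muscle fibres. The Cre line, the floxed exons and any inducing agent are not given in the labels used here, and no label ties each sample to an animal of its own. The p-values therefore rest on sample-to-sample spread alone, some or all of which may be technical.

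The respiratory chain sits in the inner mitochondrial membrane. Complexes I and II pass electrons from NADH and succinate to ubiquinone, complex III passes them to cytochrome c, and complex IV passes them to oxygen, while complexes I, III and IV pump protons that drive ATP synthase, complex V. Mitochondrial DNA encodes a few membrane subunits of complexes I, III, IV and V, whereas every subunit of complex II is encoded in the nucleus, so that the other complexes are built from the products of both genomes. Quiescent muscle stem cells hold few mitochondria, and a rise in mitochondrial mass is known to accompany their activation.

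Reads on the listed genes came to 34101213 and 21757211 in the knockout libraries and to 26990809 and 22577330 in the control libraries. Hr, which encodes a nuclear corepressor, had 7.15 and 7.90 RPKM (reads scaled by summed exon length and by library size) in the knockout libraries and 9.28 and 8.94 RPKM in the control libraries. Its log2 fold change was -0.26 (SE 0.16, limma adjusted p 0.431): lower in both knockout libraries but not past the test. The exons removed are not stated. Summed over the 10 muscle stem cell markers, the level was 4080 and 4317 RPKM in the knockout libraries and 3175 and 2619 RPKM in the control libraries. Sdc4 alone set that difference, with 3031 and 3260 RPKM in the knockout libraries and 2121 and 1582 RPKM in the control libraries, and the median log2 fold change of the 10 was -0.03, with 4 of 10 above 0. Control 2 stood apart in myofibre genes: 14 of 17 listed markers summed to 101 and 85.1 RPKM in the knockout libraries and to 217 and 885 RPKM in the control libraries. Of the 14, 9 were called lower in knockout in the authors' deposited table, against 4.26% of all genes. Fibre RNA is rich in respiratory chain transcripts, and its part in the results was not tested. Medians without control 2 are given for all subunits and by complex. The 6 endothelial markers summed to 41.9 and 63.2 RPKM in the knockout libraries and 58.1 and 76.4 RPKM in the control libraries. The 5 smooth muscle and pericyte markers summed to 164 and 241 RPKM in the knockout libraries and 342.5 and 495.5 RPKM in the control libraries. Acta2 made up most of this sum, with 148 and 205 RPKM in knockout and 321 and 474 RPKM in control, while 3 of the 5 had a log2 fold change above 0. The 3 measured of 5 fibro-adipogenic markers summed to 405 and 213 RPKM in the knockout libraries and 190 and 174 RPKM in the control libraries. Among them Ly6a, which encodes the Sca1 of the gate, had 77.4 and 80.7 RPKM in knockout and 47.9 and 49.5 RPKM in control. The 6 measured of 8 blood markers summed to 20.3 and 143 RPKM in the knockout libraries and 52.3 and 43.8 RPKM in the control libraries, with knockout 2 high in haemoglobin genes. No measured marker was at 0 in every library, and the part of these cell types in the results was not tested. In these bulk samples, fewer cells of a type and less RNA per cell cannot be told apart.

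Genes of the nuclear-encoded subunits are scattered over the genome, and many are known to share binding sites for the activators NRF1, the ETS factor GABP and YY1. The RefSeq promoter table of GRCm38.p6, with 250 bases before and 50 after each start, matched 63 of the 74 subunit genes. For each complex, the promoter of the nuclear-encoded subunit with the highest fold change is printed 5′ to 3′ on the strand of the gene, to show which of the 3 searched motifs it holds. Capitals mark a match to the NRF1 palindrome (the first capitals in Cox6a1) or to the ETS motif CCGGAAG, written CTTCCGG where it lies on the opposite strand. The third motif, YY1, has no match in these 5 promoters. They are Ndufb2 at chr6:39592315-39592614 (plus strand), Sdhb at chr4:140961021-140961320 (plus), Uqcrh at chr4:116075021-116075320 (minus), Cox6a1 at chr5:115348909-115349208 (minus) and Atp5d at chr10:80142025-80142324 (plus), the first of 2 listed for Atp5d.
Ndufb2: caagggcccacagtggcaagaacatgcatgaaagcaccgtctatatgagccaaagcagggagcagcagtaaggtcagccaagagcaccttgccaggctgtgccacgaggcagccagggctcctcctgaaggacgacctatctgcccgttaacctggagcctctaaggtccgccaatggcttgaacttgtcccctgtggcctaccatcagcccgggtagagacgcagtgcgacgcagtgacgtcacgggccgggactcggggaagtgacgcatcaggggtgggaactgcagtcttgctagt
Sdhb: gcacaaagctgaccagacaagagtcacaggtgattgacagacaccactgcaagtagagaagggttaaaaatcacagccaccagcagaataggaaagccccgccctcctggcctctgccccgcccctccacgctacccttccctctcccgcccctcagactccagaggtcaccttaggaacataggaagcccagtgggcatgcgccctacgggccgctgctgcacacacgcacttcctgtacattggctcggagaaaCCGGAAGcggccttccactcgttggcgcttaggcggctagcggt
Uqcrh: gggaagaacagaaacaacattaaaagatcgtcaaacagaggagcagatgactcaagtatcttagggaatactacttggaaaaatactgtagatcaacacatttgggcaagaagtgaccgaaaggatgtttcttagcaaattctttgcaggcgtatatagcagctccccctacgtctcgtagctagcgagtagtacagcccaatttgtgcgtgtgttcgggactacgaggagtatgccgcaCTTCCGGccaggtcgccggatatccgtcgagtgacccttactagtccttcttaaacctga
Cox6a1: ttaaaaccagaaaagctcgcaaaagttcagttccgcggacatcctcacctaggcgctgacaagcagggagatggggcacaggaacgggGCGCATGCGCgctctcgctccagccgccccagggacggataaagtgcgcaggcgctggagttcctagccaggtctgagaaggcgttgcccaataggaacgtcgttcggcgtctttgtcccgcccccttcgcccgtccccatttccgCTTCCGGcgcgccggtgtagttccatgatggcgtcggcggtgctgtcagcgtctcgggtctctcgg
Atp5d: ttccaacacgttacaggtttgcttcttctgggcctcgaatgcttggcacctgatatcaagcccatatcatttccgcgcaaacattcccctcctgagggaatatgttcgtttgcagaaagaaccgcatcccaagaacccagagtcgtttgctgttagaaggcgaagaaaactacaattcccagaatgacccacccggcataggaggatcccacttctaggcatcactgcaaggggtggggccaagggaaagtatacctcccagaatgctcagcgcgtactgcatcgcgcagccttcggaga

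The Cox6a1 promoter holds an NRF1 and an ETS match, those of Sdhb and Uqcrh hold an ETS match, and those of Ndufb2 and Atp5d hold none of the 3 motifs. Both strands were searched. Among the 63 subunit genes, 7.94% had an NRF1 match, compared with 2.38% of the 9271 genes of the deposited table that have a listed promoter. A YY1 match was found in 6.35% of the subunit genes and in 1.94% of the table's genes. The ETS match, with fewer letters, was found in 25.4% of the subunit genes and 20.5% of the table's genes. Over all 27025 genes of the promoter table, the shares were 1.07% for NRF1, 0.755% for YY1 and 9.93% for ETS. The median log2 fold change was 0.19 in the 16 subunit genes with an ETS match and 0.15 in the 47 without one. It was -0.00 in the 5 genes with an NRF1 match and 0.16 in the 58 without, and 0.06 in the 4 genes with a YY1 match and 0.16 in the 59 without. A match is a run of letters and not a binding site, and these medians were not tested.

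On the authors' scale, nuclear-encoded subunits were slightly higher in knockout as a group, while mitochondrially encoded subunits were not. Scaled by the reads listed, the nuclear-encoded median was -0.08 with 26 of 74 above 0, against a median of -0.20 over all genes. The median log2 fold change was 0.15 over the 74 nuclear-encoded subunits, -0.09 over the 8 mitochondrially encoded rows and -0.01 over all 11603 genes, on the log2(RPKM + 0.5) scale. Single values ran from -0.48 for Ndufs1 to 0.64 for Atp5d. Both knockout values lay above both control values for 37 of the 74 subunits and below both for 4, namely Ndufs1, Uqcrc2, Cox7b and Ndufa4. Over all genes, 25.0% lay above and 26.2% below in this way. Single libraries moved the median of the nuclear-encoded subunits: it was 0.05 without knockout 2, 0.23 without knockout 1, 0.10 without control 1 and 0.20 without control 2, above that of all genes in each case.

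No respiratory chain row passed the test. With limma and Benjamini-Hochberg adjustment over all genes, 0 of the 94 rows had an adjusted p under 0.05 (lowest 0.173, for Atp5d), and 1 gene in all did (0.00862%). At an unadjusted p under 0.05, 18 of the 94 rows were higher and 1 was lower, against 10.3% of all genes higher and 7.69% lower. limma-voom on the recovered reads also called 0 of the 94 rows (lowest adjusted p 0.137) and 0.0948% of all genes. In the authors' deposited table, 0 of the 94 rows had an adjusted p under 0.05, where 7.84% of all genes were called, 3.59% higher and 4.26% lower, and the lowest member was 0.0623 for Atp5d. The fold changes below are therefore sizes without a call for any single gene.

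**Figure D1:**
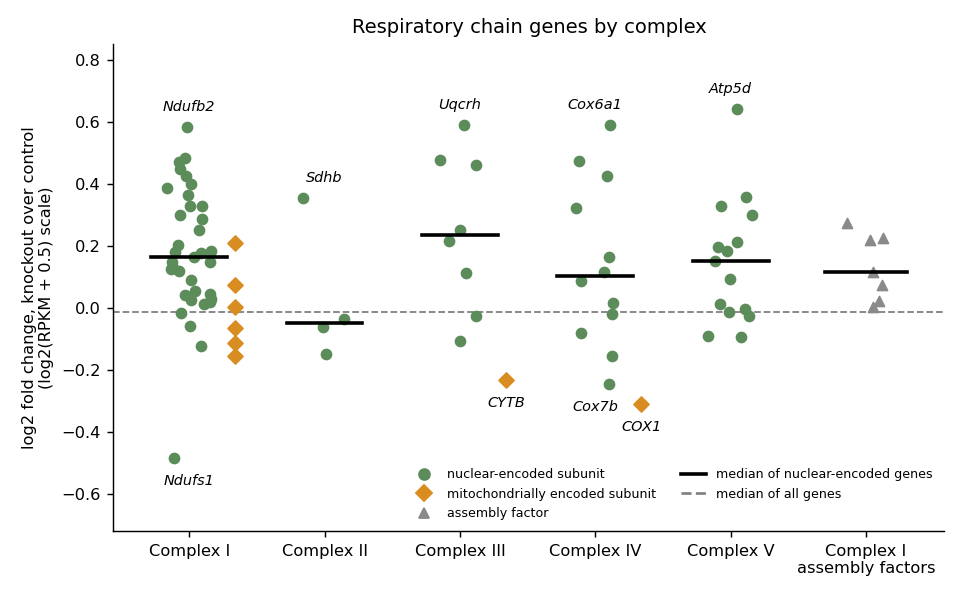
Log2 fold change of knockout over control (vertical axis, log2(RPKM + 0.5) scale) for every nuclear-encoded subunit (circles), mitochondrially encoded subunit (diamonds) and complex I assembly factor (triangles), by complex. Short bars are medians of the nuclear-encoded genes and the dashed line is the median of all genes; complex III has the highest median at 0.23 and complex II the lowest at -0.05.

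Complex I, the largest complex, receives electrons from NADH. Its 35 nuclear-encoded subunits had a median log2 fold change of 0.16, with 31 above 0. Above 0 were 48.2% of all genes and 68.7% of other genes of like length and level. Of the 35, 16 had both knockout values above both control values while 1, Ndufs1, had both below. The 7 core subunits, which carry the flavin and iron-sulfur clusters, had a median of 0.12 with 2 of 7 separated upwards. The 28 accessory subunits, which surround the core, had a median of 0.18 with 14 of 28 separated upwards and none downwards. The complex I median rested on the libraries more than that of other complexes, at 0.02 without knockout 2, 0.31 without knockout 1, 0.10 without control 1 and 0.22 without control 2. Counts of separated genes, by complex as over all, are read against 25.0% above and 26.2% below over all genes, and 42.1% above and 12.99% below over other genes of like length and level. No count by complex was tested against these shares.

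Ndufb2, an accessory subunit of the membrane arm, had 6.83 and 8.37 RPKM in knockout and 5.00 and 4.78 RPKM in control, a log2 fold change of 0.58 (SE 0.18, limma adjusted p 0.206), the highest among complex I subunits. Ndufa5, an accessory subunit of the matrix arm, had 43.4 and 44.6 RPKM in knockout and 31.2 and 31.4 RPKM in control, a log2 fold change of 0.48 (SE 0.13, limma adjusted p 0.189). In neither gene did the groups overlap. The fold change of Ndufb2 ran from 0.44 without knockout 2 to 0.72 without knockout 1. The 3 most abundant nuclear-encoded complex I subunits by RPKM were all accessory. Ndufb9 had 222 and 242 RPKM in knockout and 171 and 164 RPKM in control. Ndufa6 had 156 and 191 RPKM in knockout and 125 and 137 RPKM in control, and Ndufa2 had 149 and 155 RPKM in knockout and 114 and 112 RPKM in control. All 3 were higher in both knockout libraries, with log2 fold changes between 0.40 and 0.47.

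Ndufs1 (chromosome 1, 63143596 to 63176833, minus strand, mm10), the largest core subunit, which carries iron-sulfur clusters, was the exception. It had 6.99 and 6.15 RPKM in knockout and 9.28 and 9.47 RPKM in control, a log2 fold change of -0.48 (SE 0.16, limma adjusted p 0.226; 0.0914 in the authors' deposited table). It is also the longest member, with 8086 bases of summed exon length. Ndufa8, an accessory subunit, was the next lowest nuclear-encoded subunit of complex I at -0.12, but its 42.9 and 62.7 RPKM in knockout overlapped its 51.5 and 62.2 RPKM in control.

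Assembly factors of complex I help to put the subunits together and are not part of the finished complex. The 7 Ndufaf genes had a median log2 fold change of 0.12, all 7 above 0, against 48.2% of all genes. Only in Ndufaf2 did the groups not overlap, with 28.6 and 29.2 RPKM in knockout and 22.6 and 25.1 RPKM in control. Knockout 1 alone was high for the next 2. Ndufaf4 had 20.1 and 10.52 RPKM in knockout and 13.6 and 11.2 RPKM in control. Ndufaf1 had 14.6 and 9.65 RPKM in knockout and 10.9 and 9.45 RPKM in control. Ndufaf5 had 4.11 and 4.83 RPKM in knockout and 3.95 and 4.85 RPKM in control, and Ndufaf7, a methyltransferase, had 3.63 and 4.47 RPKM in knockout and 3.03 and 5.284 RPKM in control, with fold changes of 0.02 and 0.00.

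Complex II, succinate dehydrogenase, is also an enzyme of the citrate cycle and lacks mitochondrially encoded subunits. Its median log2 fold change was -0.05, or 0.05 without control 2 and 0.07 without knockout 1, and 3 of its 4 genes overlapped between groups. The flavoprotein Sdha had 54.0 and 67.5 RPKM in knockout and 57.0 and 67.0 RPKM in control. The membrane anchors did not stand apart either: Sdhc had 21.4 and 26.8 RPKM in knockout and 24.7 and 28.5 RPKM in control, and Sdhd had 66.4 and 65.4 RPKM in knockout and 65.3 and 72.5 RPKM in control. The iron-sulfur subunit Sdhb alone was separated, with 80.2 and 105 RPKM in knockout and 69.6 and 73.8 RPKM in control (log2 fold change 0.35, SE 0.17, limma adjusted p 0.348).

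Complex III, the cytochrome bc1 complex, had the highest median, 0.23 over 8 subunits (0.21 without control 2), of which 5 were separated upwards and 1 downwards. The 5 were small accessory subunits and the Rieske protein, whereas the large core proteins differed little. Uqcrh, the hinge protein, had 170 and 166 RPKM in knockout and 118 and 105 RPKM in control, a log2 fold change of 0.59 (SE 0.14, limma adjusted p 0.174). Uqcr10 had 186 and 172.5 RPKM in knockout and 128 and 129 RPKM in control, and Uqcrb had 185 and 189 RPKM in knockout and 143 and 130 RPKM in control. In all 3 the lowest knockout value was well above the highest control value. The Rieske iron-sulfur protein Uqcrfs1 had 159 and 156 RPKM in knockout and 140 and 124.5 RPKM in control. The core protein Uqcrc1 had 59.3 and 63.2 RPKM in knockout and 57.3 and 68.0 RPKM in control, and its partner Uqcrc2 had 47.1 and 46.8 RPKM in knockout and 49.7 and 51.5 RPKM in control. Uqcrc2 was thus lower in both knockout libraries, by -0.11 on the log2 scale.

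Complex IV, cytochrome c oxidase, surrounds its catalytic mitochondrially encoded core with small nuclear-encoded subunits, several with tissue isoforms. The 12 nuclear-encoded rows, with Ndufa4 and its relative Ndufa4l2 counted here, had a median of 0.10 (0.15 without control 2), and 7 were separated upwards and 2 downwards. Cox6a1, the ubiquitous form of subunit 6A, had 627 and 618 RPKM in knockout and 443 and 386 RPKM in control, a log2 fold change of 0.59 (SE 0.15, limma adjusted p 0.187). Cox5b, a zinc-binding subunit, had 99.2 and 96.2 RPKM in knockout and 75.9 and 64.9 RPKM in control. Cox8a, the smallest subunit, had 622 and 727 RPKM in knockout and 529 and 547 RPKM in control. These 3 did not overlap between groups, and neither did the lower ones. Cox7b had 34.7 and 35.5 RPKM in knockout and 41.1 and 42.3 RPKM in control, a log2 fold change of -0.24. Ndufa4, once assigned to complex I and now known as a complex IV subunit, had 113 and 102 RPKM in knockout and 120 and 120 RPKM in control.

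Isoform pairs showed which forms these cells express. Cox6b1, the widespread form, had 235 and 236 RPKM in knockout and 213 and 222 RPKM in control. Its testis relative Cox6b2 had 3.77 and 5.16 RPKM in knockout and 3.97 and 5.06 RPKM in control. Ndufa4l2, a relative of Ndufa4 known to be induced by hypoxia, had 3.47 and 10.46 RPKM in knockout and 4.90 and 7.39 RPKM in control, the widest spread between libraries of a group among the subunits named here. Cox7a2 had 142.5 and 157 RPKM in knockout and 142 and 139.5 RPKM in control. Cox7a2l, a factor that joins complexes III and IV into supercomplexes, had 101 and 119 RPKM in knockout and 78.4 and 84.8 RPKM in control. The heart and muscle isoforms Cox6a2, Cox7a1 and Cox8b were not among the rows and were not analysed here.

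Complex V, ATP synthase, has a catalytic F1 head, a membrane-embedded Fo with a ring of c subunits, and a stalk that holds them in place. Its 15 genes had a median of 0.15 (0.22 without control 2), with 8 separated upwards and none downwards. Atp5b and Atp5a1 of the F1 head overlapped between groups and were, with Cox6a1 and Cox8a, among the most abundant nuclear-encoded members. Atp5b had 450 and 481 RPKM in knockout and 448 and 475 RPKM in control, and Atp5a1 had 357 and 352 RPKM in knockout and 350 and 366 RPKM in control. The gamma subunit Atp5c1 overlapped too, with 101 and 128 RPKM in knockout and 115 and 127 RPKM in control.

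Atp5d (chromosome 10, 80138632 to 80145818, plus strand, mm10), the delta subunit at the foot of the rotor, had the highest fold change of all subunits. It had 240 and 277.5 RPKM in knockout and 161 and 170 RPKM in control, a log2 fold change of 0.64 (SE 0.15, unadjusted p 0.00552, limma adjusted p 0.173). Its binding partner in the same part of the rotor, the epsilon subunit Atp5e, had 27.5 and 33.0 RPKM in knockout and 30.7 and 33.8 RPKM in control, a log2 fold change of -0.10. The F1 median was -0.01 over 5 genes, so Atp5d stood alone in it. The 7 genes of Fo and the peripheral stalk had a median of 0.21, and 6 of 7 were separated upwards. The highest of them was Atp5f1, the b subunit of the stalk, with 79.2 and 85.2 RPKM in knockout and 65.0 and 63.0 RPKM in control (log2 fold change 0.36, SE 0.13, limma adjusted p 0.245).

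The c subunit of the ring is encoded by 3 genes whose mature proteins are identical. Atp5g3 was the most abundant, with 208 and 199.7 RPKM in knockout and 175 and 184 RPKM in control. Atp5g1 had 21.3 and 23.3 RPKM in knockout and 19.4 and 22.5 RPKM in control, and Atp5g2 had 25.99 and 28.5 RPKM in knockout and 28.5 and 27.0 RPKM in control. Only Atp5g3 was separated between groups. The second rows of Atp5g2 and Atp5l lie on the processed pseudogenes Gm10175 and Gm10221 of GENCODE M21, where reads of the parent gene can be placed, so these values are uncertain. The Atp5g2 row on chromosome 7 had 2.56 and 1.65 RPKM in knockout and 1.76 and 1.79 RPKM in control. The Atp5l row on chromosome 5 had 5.51 and 6.11 RPKM in knockout and 4.47 and 2.79 RPKM in control, while the parent Atp5l had 98.6 and 83.9 RPKM in knockout and 77.8 and 70.1 RPKM in control.

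**Figure D2:**
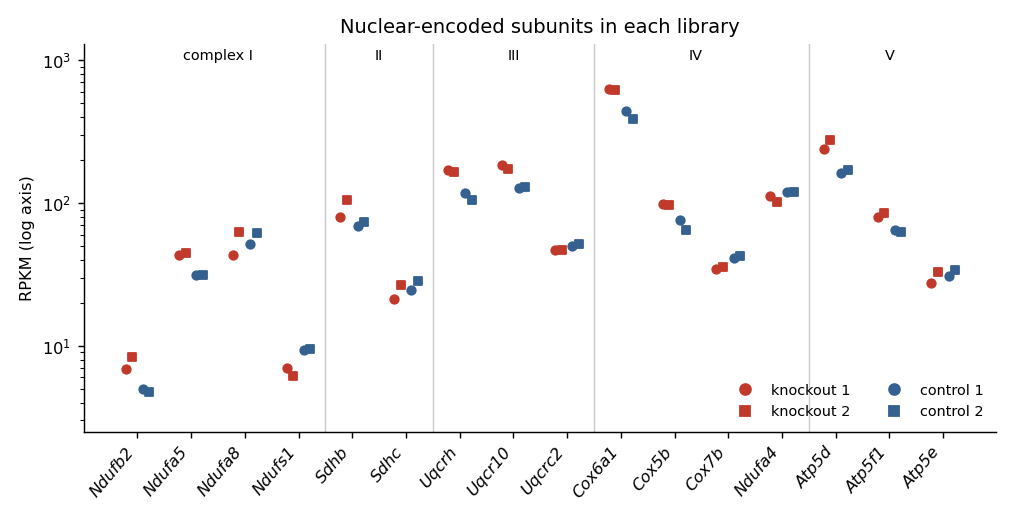
RPKM of named nuclear-encoded subunits in each library (log axis), with knockout libraries left of control libraries for each gene. Atp5d lies at 240 and 277.5 RPKM in knockout and at 161 and 170 RPKM in control. Atp5e overlaps between groups, at 27.5 and 33.0 RPKM in knockout and 30.7 and 33.8 RPKM in control.

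CYTB, COX1 and ND1, all mitochondrially encoded, were the most abundant members by RPKM, and CYTB and COX1 were lower in both knockout libraries. COX1 (chromosome MT, 5328 to 6872, plus strand), the catalytic subunit of complex IV, had 2116 and 2202 RPKM in knockout and 2777 and 2572 RPKM in control, a log2 fold change of -0.31 (SE 0.18, limma adjusted p 0.427; 0.302 in the authors' deposited table). CYTB (chromosome MT, 14145 to 15288, plus strand), the cytochrome b of complex III, had 3525 and 3632.5 RPKM in knockout and 4484 and 3937.5 RPKM in control, a log2 fold change of -0.23 (SE 0.20, limma adjusted p 0.583). Neither passed the test, and 0 of the 8 mitochondrially encoded rows had an unadjusted limma p under 0.05.

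The 6 mitochondrially encoded membrane subunits of complex I overlapped between groups, with a median of -0.03. ND1 had 1744 and 1932.5 RPKM in knockout and 2001 and 1842 RPKM in control. ND2 had 775 and 923 RPKM in knockout and 814 and 658 RPKM in control, and ND4 had 804 and 865 RPKM in knockout and 909 and 761.5 RPKM in control. Control 1 lay above control 2 in every mitochondrially encoded row, CYTB and COX1 included, and knockout 2 lay above knockout 1 in all but ND3 and ND6. ND3 was by far the lowest, with 24.5 and 24.1 RPKM in knockout and 31.7 and 21.9 RPKM in control. ND5 had 712 and 749 RPKM in knockout and 884 and 746 RPKM in control. ND6, the one gene here on the opposite strand, had 734 and 722.5 RPKM in knockout and 785 and 609 RPKM in control. ND5 and ND6 overlap by 14 bases, and whether counting used strand is not stated.

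**Figure D3:**
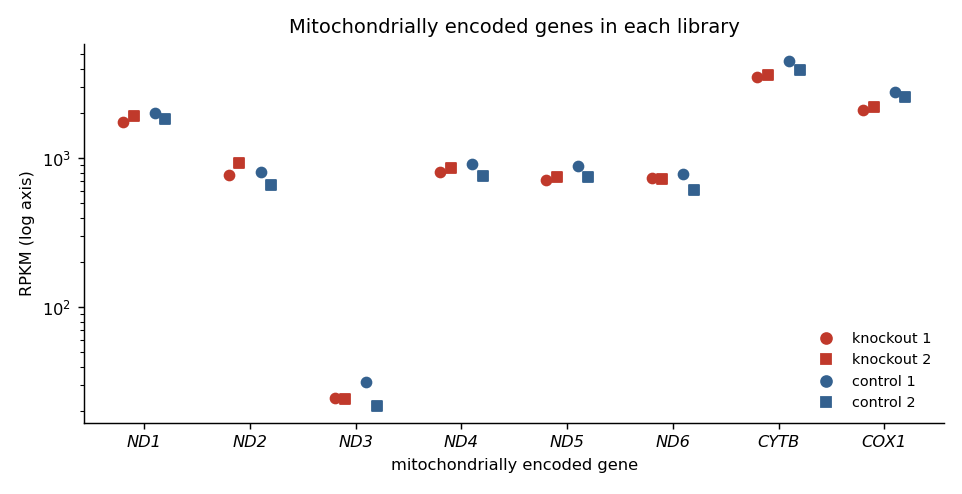
RPKM of the 8 mitochondrially encoded rows in each library (log axis), with knockout libraries left of control libraries. COX1 and CYTB are lower in both knockout libraries than in both control libraries, and the other 6 overlap.

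The balance between the genomes was lower in both knockout libraries. Summed RPKM of the 8 mitochondrially encoded rows divided by that of the 74 nuclear-encoded subunits was 1.45 and 1.43 in the knockout libraries and 2.04 and 1.76 in the control libraries. This ratio is taken within a library and does not depend on its scaling. The mitochondrial sum was 10433 and 11052 RPKM in knockout and 12686 and 11149 RPKM in control, and the nuclear sum was 7182 and 7715 RPKM in knockout and 6219 and 6340 RPKM in control. Neither sum overlapped between groups, though the mitochondrial one only narrowly. With 2 libraries a group, a two-sided exact permutation test can go no lower than p = 0.333, so the ratio carries no test.

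By complex, the ratio was separated for complexes III and IV and not for complex I. CYTB over the median complex III nuclear subunit was 27.4 and 27.7 in knockout and 43.4 and 38.3 in control. COX1 over the median complex IV nuclear subunit was 20.0 and 22.2 in knockout and 26.8 and 25.8 in control. For complex I, the median mitochondrial over the median nuclear subunit was 19.6 and 18.1 in knockout and 23.1 and 18.05 in control, so that control 2 lay at the level of knockout 2. Summed myofibre markers were lower in both knockout libraries, at 101 and 85.1 RPKM, against 217 and 885 RPKM in the control libraries. Within the controls the order was reversed, as control 2 had the higher marker sum but the lower summed ratio (1.76, against 2.04 in control 1). The part of these markers in the ratio was not tested. Without control 2, the median log2 fold change was 0.20 for the nuclear-encoded subunits and -0.20 for the mitochondrially encoded rows. Without control 1, the medians were 0.10 and 0.06, and the gap between the genomes narrowed to 0.04, compared with 0.24 with all 4 libraries.

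**Figure D4:**
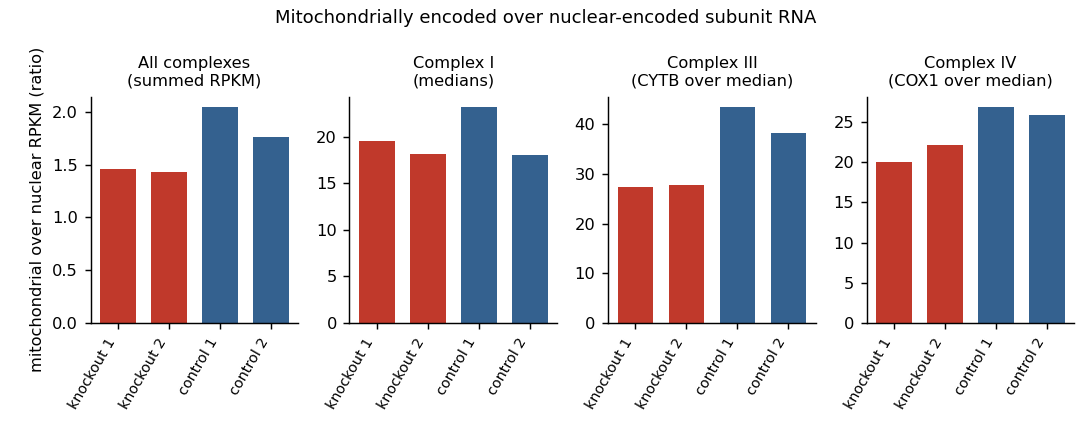
Ratio of mitochondrially encoded to nuclear-encoded subunit RNA in each library (vertical axes from 0), as the ratio of summed RPKM and, by complex, as the ratio of median RPKM, with knockout libraries left of control libraries. The summed ratio is 1.45 and 1.43 in knockout and 2.04 and 1.76 in control, and complex I overlaps.

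The direction of the nuclear-encoded median depended on how libraries were scaled. The authors divided by library sizes that were 75.7% and 75.5% of the reads listed in the knockout libraries and 85.9% and 92.4% of those in the control libraries. Scaled by the reads listed, the median of all genes moved to -0.20, that of the nuclear-encoded subunits to -0.08 and that of the mitochondrially encoded rows to -0.32, with 26 of 74 and 0 of 8 above 0. Relative to all genes, the nuclear-encoded subunits were higher by 0.16 on the authors' scale and by 0.12 on this one. As a share of reads listed, the mitochondrially encoded rows took 0.952% and 1.005% in knockout and 1.33% and 1.26% in control, and the nuclear-encoded subunits took 0.836% and 0.897% in knockout and 0.860% and 0.962% in control.

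Subunit genes are short and abundant, and other genes within their ranges of length and level had, when pooled, about the same median shift. Summed exon length had a median of 1514 bases in the nuclear-encoded subunits, from 419 bases in Ndufa1 to 8086 in Ndufs1, and of 4027 bases over all genes. The 2255 other genes within the subunits' 10th to 90th percentile of both length (594 to 4126 bases) and mean level (13.3 to 186 RPKM) had a median log2 fold change of 0.17. That of all 74 subunits, inside these ranges or not, was 0.15. Of these other genes, 42.1% had both knockout values above both control values, against 37 of the 74 subunits, and 12.99% had both below, against 5.41% of the subunits. At an unadjusted limma p under 0.05, 21.1% of them and 21.6% of the subunits were higher. Pooled over these ranges, the median shift of the subunits was thus about that of the other genes. By length range alone, the subunit median lay below that of other genes under 2000 bases and above it between 2000 and 8000 bases.

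Length and fold change were related across the table. Spearman's rho across genes was -0.29 over the 11509 other genes and -0.21 over the 74 subunits, which share the same 4 libraries and are not independent points. Mean level and fold change had a rho of 0.32 over the other genes and 0.39 over the subunits. Between 500 and 1000 bases the median log2 fold change was 0.18 in 23 subunits and 0.32 in 296 other genes. Between 1000 and 2000 bases it was 0.16 in 23 subunits and 0.21 in 1488 other genes. Between 2000 and 4000 bases it was 0.15 in 17 subunits and 0.03 in 3849 other genes, and between 4000 and 8000 bases 0.07 in 8 subunits and -0.07 in 4177 other genes. Ndufs1, alone between 8000 and 16000 bases, was at -0.48, against -0.11 in 1492 other genes. The cause of the relation to length was not tested.

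**Figure D5:**
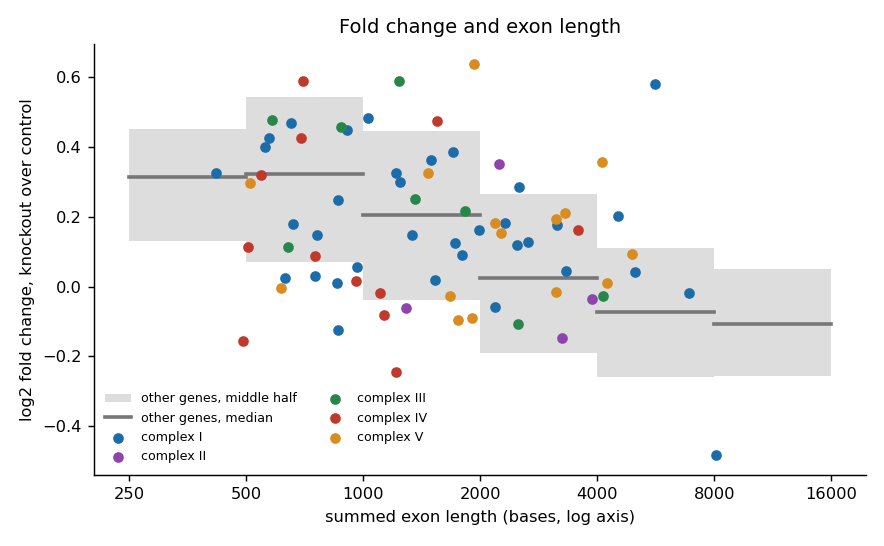
Log2 fold change of knockout over control against summed exon length (log axis) for the 74 nuclear-encoded subunits, coloured by complex. Grey bands hold the central part of the other genes in each length range and grey lines their median, which runs from 0.32 between 500 and 1000 bases to -0.11 between 8000 and 16000 bases; Ndufs1 lies lowest, at -0.48.

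Levels of different subunits are comparable only as far as the length used for each is. In the control libraries, mean RPKM of the nuclear-encoded subunits spanned 119-fold, from 4.52 (Cox6b2) to 538 (Cox8a). The summed exon length adds every annotated exon and was 0.817 (Cox6b1) to 7.26 (Ndufb7) times the length of the principal transcript in GENCODE M21, with a median of 1.55 and 11 subunits above 3. Per kilobase of principal transcript, the control mean of Ndufb7, an accessory subunit of complex I, was 53.7, against 7.39 RPKM as deposited. The level of Cox6c, a complex IV subunit, was 211 by this length, against 35.9 RPKM as deposited. By this length the extremes lay 162-fold apart, from 6.31 for Ndufa4l2 to 1020.5 for Atp5b, while the SD of the log2 level over subunits was 1.33, against 1.46 as deposited. Fold changes are not touched by the length, except through the 0.5 added to low values.

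Other genes that serve the chain had list medians between -0.14 and 0.13, and neither limma nor limma-voom called any gene of the 6 lists measured. Of 7 genes outside the naming rule, for subunits, carriers and the ATP synthase inhibitor Atpif1, 6 were measured, with a median log2 fold change of 0.13. Of these, 2 were higher at an unadjusted limma p under 0.05, Cox4i1 and the cytochrome c gene Cycs (log2 fold change 0.55, limma adjusted p 0.180). Over all genes, 10.3% were higher and 7.69% lower at this p, and such counts in all 6 lists are read against these shares. Cox4i1, the ubiquitous form of complex IV subunit 4, had 378.5 and 437 RPKM in knockout and 294 and 268 RPKM in control (log2 fold change 0.53, limma adjusted p 0.198). Usmg5, a small ATP synthase subunit, had 245 and 214 RPKM in knockout and 226 and 190 RPKM in control, and its groups overlapped.

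Assembly factors outside the naming rule, 39 measured of 42, had a median of -0.01. At an unadjusted limma p under 0.05, 6 were higher and 1 was lower, against 10.3% and 7.69% of all genes. In the authors' deposited table, Cox20, a chaperone of COX2, was higher, with 10.8 and 12.96 RPKM in knockout and 5.91 and 5.86 RPKM in control (adjusted p 0.00638). Nubpl, which inserts iron-sulfur clusters into complex I, had 1.46 and 2.29 RPKM in knockout and 0.931 and 1.13 RPKM in control, with an adjusted p of 0.0206 in the authors' deposited table. Coa5, a complex IV assembly factor, had 2.01 and 2.55 RPKM in knockout and 3.51 and 5.00 RPKM in control, with an adjusted p of 0.00771 in the authors' deposited table. The limma adjusted p of the 3 lay between 0.141 and 0.239.

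Genes that maintain and express mitochondrial DNA, 34 measured of 35, had a median of -0.14. At an unadjusted limma p under 0.05, 2 were higher and 4 were lower, against 10.3% and 7.69% of all genes. Both knockout values lay above both control values for 6 of the 34 (17.65%) and below for 12 (35.29%). Over all genes, these shares were 25.0% and 26.2%. Hsd17b10, a component of mitochondrial RNase P, which cuts tRNAs out of the mitochondrial transcript, had 119 and 147 RPKM in knockout and 64.5 and 75.1 RPKM in control (log2 fold change 0.92, SE 0.17, limma adjusted p 0.150; 0.00184 in the authors' deposited table). Mterf2, a relative of the mitochondrial transcription termination factor listed under an older symbol, had 0.742 and 0.622 RPKM in knockout and 1.52 and 1.32 RPKM in control, with an adjusted p of 0.0381 in the authors' deposited table. Chosen after their values were seen, Tfam, which packages mitochondrial DNA and starts its transcription, had 34.9 and 32.8 RPKM in knockout and 24.2 and 23.6 RPKM in control. Polrmt, the mitochondrial RNA polymerase, had 2.33 and 2.13 RPKM in knockout and 3.22 and 3.27 RPKM in control. Neither passed limma (adjusted p 0.189 and 0.241) or reached 0.05 in the authors' deposited table.

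Regulators of mitochondrial biogenesis, 12 measured of 16, had a median of -0.12, with 1 lower at an unadjusted limma p under 0.05 (7.69% of all genes). Esrra, the nuclear receptor ERR alpha, an activator of respiratory chain genes, was lower, with 1.14 and 1.08 RPKM in knockout and 2.48 and 3.60 RPKM in control (log2 fold change -1.12, SE 0.21, limma adjusted p 0.152; 3.4e-05 in the authors' deposited table). It was the one gene of this list with a call in the authors' deposited table. The 16 measured genes of the citrate cycle and pyruvate dehydrogenase had a median of -0.08 and no call. At an unadjusted limma p under 0.05, 1 was lower, Dlat of pyruvate dehydrogenase, with a log2 fold change of -0.47. Both knockout values lay above both control values for 4 of the 16 (25.0%) and below for 5 (31.25%), against 25.0% and 26.2% of all genes. The most abundant of the list were among those above. Pdhb, of pyruvate dehydrogenase, had 139 and 141 RPKM in knockout and 114 and 115 RPKM in control. Mdh2, the mitochondrial malate dehydrogenase, had 99.4 and 118 RPKM in knockout and 81.6 and 89.0 RPKM in control. The 15 genes of import, membrane channels and matrix chaperones had a median of 0.03 and no call, likewise with 1 lower. The chaperonin Hspd1 had 485 and 345 RPKM in knockout and 370 and 258 RPKM in control, and the matrix chaperone Hspa9 had 211 and 165.5 RPKM in knockout and 187 and 187 RPKM in control.

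For scale, 3 other gene families of the table were set beside the nuclear-encoded subunits. The median log2 fold change was 0.22 over 74 mitochondrial ribosomal protein genes, 0.45 over 88 cytosolic ribosomal protein genes and 0.08 over 16 glycolytic enzymes. The nuclear-encoded subunits, at 0.15, lay between glycolytic enzymes and both ribosomal families, and the differences between families were not tested.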

How the data were processed

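RNA from sorted muscle stem cells was measured in 4 libraries, 2 knockout and 2 control. The deposited values came as 1 table. Per the submitters' processing notes, the tools were STAR, Trim Galore, edgeR and Subread's featureCounts, on mm10 (GRCm38), and no versions are listed there. The authors' deposited values were taken to be RPKM: multiplied by gene length, 100% of them fell on whole reads (tolerance 0.01 reads). Columns were matched to samples by name: Ct was taken as control, and Fl, which the labels do not spell out, as knockout. The authors' deposited table also holds a p-value adjusted over genes (a q-value), and its model is not stated.

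The main test was limma 3.58.1 (R 4.3.3) on log2(RPKM + 0.5), with a trended prior variance, genotype as the only term, over all 11603 genes with no filter beyond the deposited one, Benjamini-Hochberg adjustment and a threshold of 0.05. Fold changes are on this scale, which understates the change of low genes. The fit was tested on simulated data, in which the changes put in were larger than that of any respiratory chain row. How often it finds changes as small as theirs was not tested. Medians of gene lists are descriptions with no test. Alternatives were another pseudocount (0.1 or 1), a minimum mean RPKM of 1, scaling by the reads listed or by median ratios, limma-voom on recovered reads, the replicate number as a block, and leaving out each library. Comparisons with genes of like level, within-setting differences of medians and principal transcript lengths were added after seeing the data. The members, lists and naming rule were chosen with earlier results of these data known. Values were printed for all complex II and mitochondrially encoded genes and for isoform pairs. In each other complex and the assembly factors, they were printed for the most abundant members and for those with the highest and lowest fold changes. In other lists they were printed for members under 0.05 in the authors' deposited table, or else the most abundant. Symbols, and otherwise RefSeq synonyms of the Entrez ID, matched list members to rows. A further 17 rows whose symbols read as dates were not named. The lowest member had 16 reads in a library, and the spread between libraries sets the precision.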

Additional observations from a re-analysis of the deposited data

How the results depend on the processing

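No respiratory chain row was called by limma under the other pseudocounts, the minimum level, the other scalings, limma-voom or with any library left out. Of all genes, limma-voom called 11 and limma 0 to 1 with 1 library left out, where the lone library is assumed to vary like the others, compared with 1 using all 4. With the replicate number as a block, limma called 1004 genes and 3 respiratory chain rows, Ndufa5, Uqcrh and Atp5d, and changed no other call on a named row. The labels do not say that a number marks a shared source. With 2 pairs, same-numbered deviations had a correlation of 0.41 over 10007 genes, a hint from the data and not the design.

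Scaled by the reads listed, the median log2 fold change was -0.084 for nuclear-encoded subunits, -0.32 for mitochondrially encoded rows, -0.072 for complex I, -0.28 for complex II, -0.0017 for complex III, -0.14 for complex IV and -0.082 for complex V, by construction of the library sizes. With each library left out in turn, the median ran from 0.05 to 0.23 for nuclear-encoded subunits and from -0.20 to 0.06 for mitochondrially encoded rows. By complex it ran from 0.025 to 0.31 for complex I, from -0.14 to 0.07 for complex II, from 0.21 to 0.28 for complex III, from 0.065 to 0.17 for complex IV and from 0.081 to 0.22 for complex V. Complex I was lowest without knockout 2, and the mitochondrially encoded median was above 0 only without control 1. The other pseudocounts, the minimum level, median-ratio scaling and limma-voom moved these medians by less than the spread between replicates.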
